A study of Mus musculus with 80 samples.

Results

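Of 175496 autosomal 10-kb windows tested in mouse embryonic stem cells (ESCs), 2193 (1.25%) were at 50% CpG methylation or less in serum, and these low windows are described here. Each tested window had 20 or more CpG calls in all 8 libraries after positions of over 20 calls had been removed, and a window was taken as low when the mean of its 2 serum input libraries was 50% or less. The remaining 173303 tested windows are called the other windows. The low windows were thus chosen by the serum input values, which are given as a description, with no test. Serum input replicate 1 alone chose 3189 windows, which read 42.2% in that library and 50.8% in replicate 2, and replicate 2 alone chose 3468 windows, which read 42.1% in that library and 52.5% in replicate 1. In 1311 windows both serum input libraries were at 50% or less.

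The study followed ESCs as they were moved from serum medium with LIF to 2i medium, a serum-free N2B27 medium with LIF, the MEK inhibitor PD0325901 and the GSK3 inhibitor CHIR99021. Wild-type E14 ESCs gave the 8 libraries of ChIP-BS, in which chromatin was precipitated with an antibody to H3K9me2 and the recovered DNA was bisulfite-sequenced beside the unprecipitated input DNA, with 2 bound and 2 input libraries in serum and in 2i (the labels of these name 2i with no time, and the study describes it as long-term 2i). The same line gave 12 libraries of reduced representation bisulfite sequencing (RRBS) in serum and after 24, 48, 72, 96 and 168 h in 2i, 12 RNA-seq libraries in serum and after 6, 24 and 72 h, and H3K9me2 ChIP-seq in serum, after 24 h and in long-term 2i (LT2i). Further RRBS compared UHRF1-/- with wild-type ESCs of the E14 background and TET1/2/3-/- (TKO) with wild-type ESCs of C57/129/FVB background, each in serum and in 2i. The ChIP-BS libraries held 17325308 to 25246767 CpG calls (1 call is 1 CpG read once as methylated or not), with 1 call at 53.5% to 63.8% of their positions, so single positions carried little information and windows were used. The study calls its expression replicates biological. Nothing in the labels says that the bisulfite replicates came from separate cultures, so their p-values measure the spread between these samples, which may be technical.

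Cytosines of CpG dinucleotides in ESCs are methylated over most of the genome, with CpG islands at gene starts as the best known exception. H3K9me2 is a histone mark of repressed chromatin that is laid down by the G9a and GLP enzymes, and UHRF1 binds both this mark and hemimethylated DNA and brings the maintenance methyltransferase DNMT1 to newly replicated DNA. TET enzymes oxidise methylated cytosine, and 2i is known to lower methylation across the ESC genome.

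Gene starts in low windows are shown here by the promoters of 4 genes. Of the 2006 located genes that start in tested windows 341 started in low ones. Of 80 developmental transcription factors outside the Hox clusters, 29 were located and 4 started in tested windows, and these 4 started in low windows, while the other located ones started in windows that were not tested. No test was made on so small a number. The 250 bases before their starts are shown because their CpG density and low RRBS level stand beside a far higher ChIP-BS level of the 10-kb windows. They were picked for display after the values had been seen. They are RefSeq sequences of GRCm38.p6, written 5′ to 3′ along the gene, with every CG in capitals. Isl1, a LIM-homeodomain factor of motor neurons and heart progenitors, lies on the minus strand at chr13:116309689-116309938 and had 33 CpGs. Emx2, a homeodomain factor of the dorsal forebrain, lies on the plus strand at chr19:59458440-59458689 and had 24 CpGs. Neurod1, a basic helix-loop-helix factor of neurons and islet cells, lies on the minus strand at chr2:79456637-79456886 and had 22 CpGs. Hand2, a basic helix-loop-helix factor of heart and limb, lies on the plus strand at chr8:57320733-57320982 and had 15 CpGs.
Isl1: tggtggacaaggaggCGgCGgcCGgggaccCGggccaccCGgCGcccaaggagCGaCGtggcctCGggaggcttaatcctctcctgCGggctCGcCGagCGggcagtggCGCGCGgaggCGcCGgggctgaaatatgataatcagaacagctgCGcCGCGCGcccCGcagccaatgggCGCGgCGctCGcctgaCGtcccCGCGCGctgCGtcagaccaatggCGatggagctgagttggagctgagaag
Emx2: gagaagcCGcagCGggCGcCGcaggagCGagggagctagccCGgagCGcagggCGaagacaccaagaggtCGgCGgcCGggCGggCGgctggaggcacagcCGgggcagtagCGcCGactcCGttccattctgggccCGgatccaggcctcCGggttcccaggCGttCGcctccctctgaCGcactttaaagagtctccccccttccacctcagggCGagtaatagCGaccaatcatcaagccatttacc
Neurod1: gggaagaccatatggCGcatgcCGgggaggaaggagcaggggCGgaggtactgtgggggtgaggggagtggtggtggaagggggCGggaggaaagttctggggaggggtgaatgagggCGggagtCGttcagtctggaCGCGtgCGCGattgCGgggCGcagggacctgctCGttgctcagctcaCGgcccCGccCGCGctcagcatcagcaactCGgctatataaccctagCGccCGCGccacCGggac
Hand2: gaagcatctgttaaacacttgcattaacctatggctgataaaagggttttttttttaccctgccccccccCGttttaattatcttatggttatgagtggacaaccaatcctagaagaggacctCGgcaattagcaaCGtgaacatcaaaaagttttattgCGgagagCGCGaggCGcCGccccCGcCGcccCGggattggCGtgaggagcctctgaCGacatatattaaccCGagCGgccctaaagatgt

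RRBS, which did not enter the choice of windows, read these promoters low in serum. Isl1 was at 0.327% and 0.377% in the 2 E14 serum libraries (306 and 265 calls), and at 0% in both 168 h libraries (189 and 426 calls). Emx2 was at 0.658% and 0% in serum (304 and 391 calls), and at 0% and 0.303% at 168 h (218 and 659 calls). These 2 promoters were thus close to unmethylated before 2i as well as after it. Neurod1 rested on fewer calls, with 2.17% and 5.08% in serum (46 and 59 calls) and 2.86% and 0% at 168 h (35 and 12 calls). Hand2 was at 0% and 8.62% in serum (20 and 58 calls) and at 5.41% in the 168 h library with calls (37 calls). ChIP-BS read the 10-kb windows of these starts far higher. In serum input the Isl1 window chr13:117090001-117100000 (coordinates of windows are NCBIM37) was at 42.6% and 42.9%, and the Emx2 window chr19:59530001-59540000 at 37.7% and 27.7%. The promoters themselves had few ChIP-BS calls in serum input: 46 for Emx2 in replicate 2, 11 for Hand2 in replicate 1, and 0 for Isl1 and Neurod1. Isl1 starts at 117099896 on the minus strand, so part of its promoter lies outside the window. The window levels thus rest mostly on other DNA than the promoters shown.

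Low windows were most frequent among windows of few and of many CpGs. The number of CpG positions with a call had a median of 76 per low window (quartiles 53 and 130, range 20 to 1187) and of 98 in the other windows (quartiles 74 and 128). When all tested windows were divided into 5 CpG classes of nearly equal size, class 1 (7 to 69 positions) had 984 low windows of 36130 (2.72%). Class 2 (70 to 87), class 3 (88 to 109) and class 4 (110 to 137) had 0.759%, 0.555% and 0.786% low windows, and class 5 (138 to 1187) had 475 of 34152 (1.39%). The low windows also had lower depth: their median calls per window were 48 to 62 in the 8 libraries, against 63 to 111 in the other windows. The part of depth in the excess at few CpGs was not tested, and the CpG number counts positions with a call, so depth enters it. Of the 82693 windows that had 50 calls or more in all libraries, 251 were low, a smaller share than the 2193 of 175496. Chromosome 7 held the largest share of low windows (216 of 8592 tested, 2.51%), and chromosome 10 the smallest (70, or 0.672%).

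Within the low windows the serum input mean ran from 3.76% to the threshold with a median of 45.3%. At 25% or less lay 30 windows, at 40% or less 507, and at 45% or less 1046. The 281 windows just inside the threshold, at 49% to 50%, resembled the 320 windows just outside it, at 50% to 51%: bound serum DNA read 64.9% and 65.5%, input 2i DNA 21.3% and 21.4%, and bound 2i DNA 28.2% and 28.8%. The threshold thus cut a continuous range.

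Gene starts were frequent in the low windows. RefSeq promoters were located in the bisulfite files through the spacing of their CpGs, which placed 8550 genes, and 299 of the 2193 low windows (13.6%) held a located start against 0.878% of the other windows. Low windows lay within 20 kb of a start in 18.4% of cases and other windows in 5.28%, while the median distance to the nearest start was 289 kb and 292 kb. Starts went with CpG number: one was found in 0.203% of low windows of class 1 and in 40.2% of those of class 5. The search requires 10 CpGs in a promoter and only 24.5% of the 7445 windows with a located start passed the call minimum, so the low windows hold a part of the gene starts that would meet the rule.

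Most low windows had no adjacent low window. They formed 2081 runs, of which 1982 were single windows. Of the 1955 low windows with a tested neighbour 211 lay in runs of 2 or more, where 1.25% of all tested windows were low. Whether low windows lay together more often than their overall share would give was not tested. The longest runs were 3 of 4 adjacent windows. One of these, chr7:67990001-68030000, lay 1510 kb or more from the nearest located starts (Ube3a and Mkrn3), and its windows had serum input means of 45.6%, 29.3%, 33.3% and 47.6%. The others were chr8:52870001-52910000, 1819 kb or more from a located start (Neil3), with 28.7%, 45.8%, 48.6% and 46.3%, and chr8:87710001-87750000, 78 kb or more from one (Orc6), with 30.4%, 43.5%, 35.1% and 50.0%. Of the 7 runs of 3 windows the first 2 in genome order were also looked at, chr6:130060001-130090000 and chr8:31380001-31410000, and no located start fell inside these 5 runs. The 2833 adjacent tested windows that were not low read 70.7% in serum input and 75.9% in bound serum DNA, nearer to the other windows than to the low ones. Each of them was above 50% in mean serum input by choice, so this nearness was partly set by leaving out low neighbours.

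**Figure D1:**
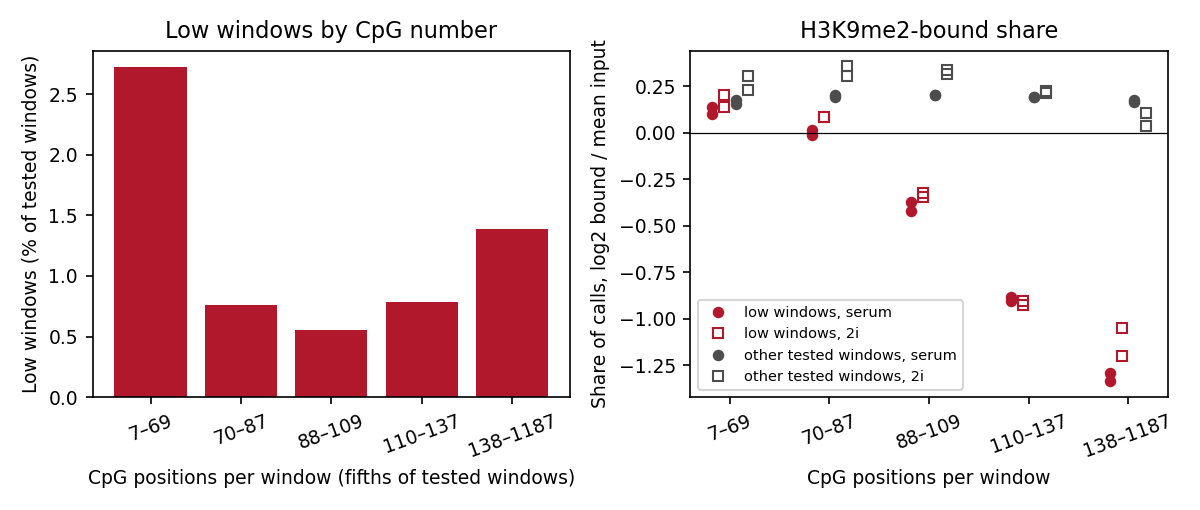
Left, the share of tested windows (%) that were low in serum, by classes of CpG positions per window. Right, log2 of the share of a bound library's calls over the mean share of the 2 input libraries of the same medium, 1 point per bound library, filled in serum and open in 2i; low windows (red) fell from near the other windows (grey) at 7 to 69 positions to below -1 at 138 to 1187.

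The low windows were under-represented in H3K9me2-bound DNA, and the more so the more CpGs they held. The measure is the share of a library's autosomal calls that lay in a set of windows, in bound over input DNA. The rule used no such ratio, but its minimum of 20 calls held for the bound libraries too and so left out windows poor in bound DNA: untested windows with a gene start took 0.223 times the input share in serum and 0.117 times in 2i. In serum the low windows took 0.711 times the input share and in 2i 0.771 times, a mean log2 difference of -0.43 (-0.28 when serum input replicate 1 was left out and -0.27 without replicate 2, where the remaining input library alone chose the windows), whereas the other windows took 1.14 and 1.18 times. The difference between low and other windows was -0.65 on the log2 scale, or 0.638-fold (two-sided exact permutation of bound and input within medium, p = 0.0556 for both, the smallest that 36 arrangements can give, so 0.05 was out of reach).

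From class 1 to class 5 the low windows took 1.09, 1.00, 0.759, 0.539 and 0.402 times the input share in serum and 1.13, 1.06, 0.794, 0.531 and 0.458 times in 2i. In the other windows the same values stayed between 1.12 and 1.15 in serum and between 1.05 and 1.26 in 2i. Low windows of few CpGs were near the other windows of class 1 (0.952-fold). Those of many CpGs stood well below those of class 5 (0.392-fold over 474 low windows, without the window on chromosome 17 described further on). The minimum of 20 calls limits how scarce in bound DNA a tested window can be, most of all where calls are few. Class 1 low windows had medians of 37 and 41 calls in serum input. The part of this limit in the differences between classes was not tested. Those with a gene start took 0.438 times the input share in serum and 0.463 times in 2i, and those without 0.777 and 0.838 times. Other windows with a gene start took 0.698 and 0.641 times. The unit is a CpG call and not a DNA fragment, so 1 read can give several.

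Window by window, 757 low windows (34.5%) had a lower share of calls in bound than in input serum DNA and 20 had a higher one (edgeR quasi-likelihood test, Benjamini-Hochberg adjusted p under 0.05 over all 175496 windows), where 11.4% of all tested windows were lower and 5.63% higher. In 2i 850 low windows (38.8%) were lower and 104 higher, where 20.6% of all tested windows were lower and 16.6% higher. The few higher calls were the less stable: the 20 in serum lay between 7 and 22 and the 104 in 2i between 41 and 107 with 1 library left out (7 in serum without input serum replicate 1 or bound serum replicate 2, 41 in 2i without input 2i replicate 1), and DESeq2 gave 8 and 41. How the share of all tested windows moved in these fits is not given here, so the moves are not read as a trait of the low windows. Without TMM scaling, on library totals alone, the split was 646 lower and 101 higher in serum and 713 lower and 266 higher in 2i, where of all tested windows 7.59% were lower and 17.7% higher in serum and 15% lower and 30.9% higher in 2i. Of the 299 low windows with a gene start 244 (81.6%) were lower in serum and 231 (77.3%) in 2i, and none was higher in either. Of the 1522 other windows with a gene start 51.6% were lower in serum and 65.2% in 2i. In class 1 53 of 984 low windows (5.39%) were lower in serum and 112 (11.4%) in 2i, near the 5.74% and 11% of the other windows of class 1. The bound share differed between 2i and serum in 59 low windows (2.69%), 20 higher and 39 lower in 2i, where 4.92% of all tested windows were called, 1.67% higher and 3.24% lower. That count lay between 25 and 42 when any 1 of the 8 libraries was left out (25 without bound 2i replicate 1, 27 without bound serum replicate 1) and at 18 with DESeq2, where the share of all tested windows was 1.91% to 3.05% and 1.85%.

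Methylation of bound DNA in the low windows was well above that of input DNA, and fell in 2i in nearly every window. Pooled over the low windows, input serum DNA read 42.0% and 41.4% in the 2 libraries and bound serum DNA 61.9% and 62.2%. In 2i, input DNA read 18.4% and 18.4% and bound DNA 26.2% and 26.0%. Libraries of one kind lay within 1 point of each other, and the 4 kinds did not overlap. For the other windows the means of the same pairs were 75.9%, 81.5%, 35.1% and 40.5%. The excess of bound over input DNA in serum, 20.4 points in the low windows and 5.58 in the other windows, was partly set by the choice of windows on serum input and is given as a description only.

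In bound DNA, whose methylation did not enter the rule, the level was 62.1% ± 0.207 in serum and 26.1% ± 0.160 in 2i (SD, n = 2 each), a difference of -36.0 points against -41.1 points in the other windows (two-sided exact permutation, p = 0.333, the smallest that 2 against 2 libraries can give). The quasi-binomial fit over all windows, with dispersions moderated by limma, called 2010 low windows (91.7%) lower in 2i by 20 points or more at an adjusted p under 0.05 and none higher, where 98.7% of all tested windows were lower and 0.00057% higher. The median change was -34.8 points in the low windows. In 2148 low windows (97.9%) both bound 2i libraries were below both bound serum libraries, against 99.8% of the other windows. What bound DNA kept in 2i was 42.0% of its serum level in the low windows and 49.6% in the other windows. For input DNA, used by the rule, the corresponding values were 44.1% and 46.2%.

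In 2i, bound DNA exceeded input DNA by 7.69 points in the low windows and by 5.32 points in the other windows (exact permutation, p = 0.333, again the smallest possible). The quasi-binomial fit called 94 low windows (4.29%) higher in bound DNA and none lower, where 0.668% of all tested windows were called higher and 0.0171% lower (0.685% in either direction). The number rose with CpG number: 0 of 984 low windows of class 1 were called, 5, 9 and 17 in classes 2 to 4 and 63 of 475 (13.3%) in class 5. In the other windows the share also rose with class, from 0.253% in class 1 to 1.39% in class 5. The 94 calls depended on single libraries and fell to 17 without bound 2i replicate 1, to 33 without bound 2i replicate 2, to 30 without input 2i replicate 1 and to 22 without input 2i replicate 2, where 0.0991%, 0.253%, 0.0946% and 0.0963% of all tested windows were called higher. With limma on log2 ratios 4 low windows were called, of 8 among all tested windows.

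A low level in bound DNA as well was found in a minority of the low windows. In 344 of them (15.7%) the mean of the bound serum libraries was at 50% or less, against 0.0796% of the other windows, and in 210 each bound serum library was. In 2i, 176 low windows (8.03%) had an input mean of 10% or less, against 0.167% of the other windows.

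**Figure D2:**
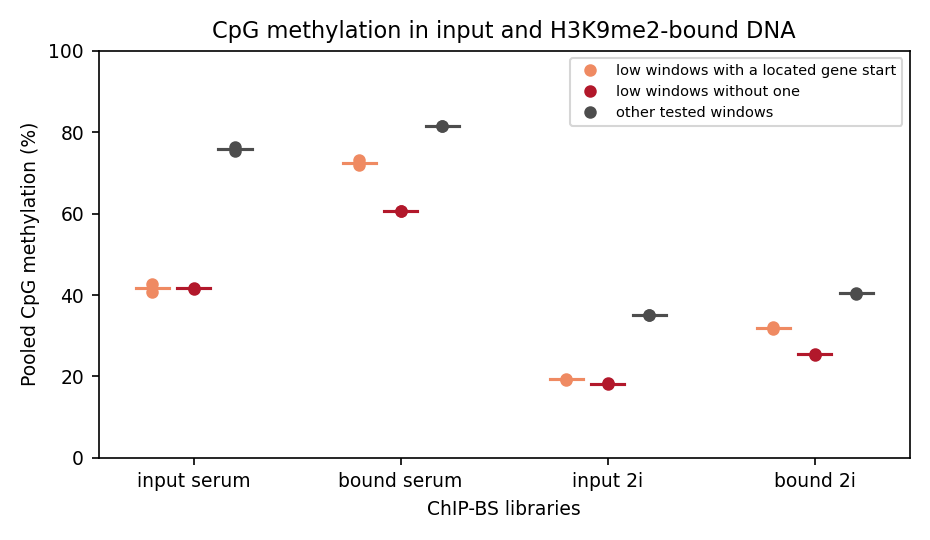
Pooled CpG methylation (%) in the 2 libraries of each kind (points, with bars at their mean) for low windows with a located gene start (orange), low windows without one (red) and other tested windows (grey). At like input levels in serum the low windows with a start read 72.5% in bound serum DNA and those without 60.7%, both below the other windows.

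Low windows with and without a gene start had the same pooled input level in serum, 41.7%, and differed in bound DNA. The set without a start includes the chromosome 17 window described below, at 3.76% in serum input, which lowers the pooled values of that set. Those with a start read 72.5% in bound serum DNA and 31.9% in bound 2i DNA, and those without read 60.7% and 25.4%. The excess of bound over input DNA in 2i was 12.6 points with a start and 7.17 points without, and in the other windows it was likewise larger with a start (9.99 points) than without (5.27 points). Low windows of CpG class 5 read 71.6% in bound serum DNA and those of class 1 55.2%.

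Around the starts the low level was a narrow trough and bound DNA was scarce in it. For the 373 located starts in low windows, input serum DNA was at 4.13% over the first 500 bases downstream and at 5.95% over the 500 bases upstream, and rose to 66.9% at 5 kb upstream and 69.2% at 5 kb downstream. Bound serum DNA read 17% and 25.9% in the same central bins, and 79.2% and 82.3% at the ends. The first 500 bases took 0.0772 times the input share of calls in serum and 0.161 times in 2i, against 0.760 and 0.648 times at 5 kb upstream and 0.639 and 0.478 times at 5 kb downstream.

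Starts in the other windows showed the same trough at a higher level, with 19% in input serum DNA and 62.2% in bound serum DNA over the first 500 bases. There they took 0.274 times the input share in serum and 0.289 times in 2i. The 7430 starts in untested windows had a lower input level than those in low windows, 3.18% in serum, and took 0.0441 times the input share in serum and 0.0492 times in 2i. In low windows, positions within 1 kb of a start held 11.7% ± 1.19 in input serum DNA, 40.9% ± 0.315 in bound serum DNA, 4.69% ± 0.140 in input 2i DNA and 15.8% ± 0.768 in bound 2i DNA (SD, n = 2). Positions farther than 1 kb in the same windows held 58.4%, 76.8%, 26.0% and 35.6%. Away from the start these windows thus also lay below the 74.6% of other windows with a start in serum input, a value that the rule could set.

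**Figure D3:**
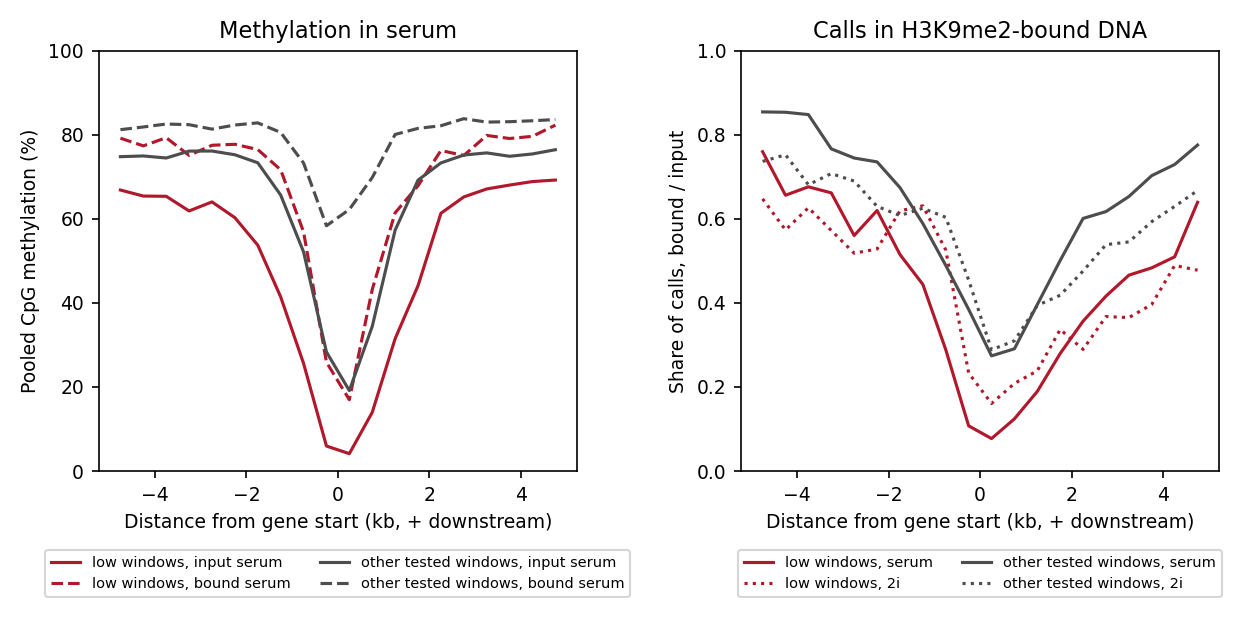
Left, pooled CpG methylation (%) in serum in 500-base bins within 5 kb of located gene starts, input DNA as solid lines and bound DNA as dashed lines. Right, the share of calls in bound over input DNA in the same bins, solid in serum and dotted in 2i. Low windows (red) reached 4.13% and a ratio of 0.0772 in serum just downstream of the start, below the other tested windows (grey).

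One window stood apart. At chr17:39980001-39990000 lay the window of lowest serum input (3.76%) and the most CpG positions (1187). RefSeq lists Rn18s-rs5, an 18S ribosomal RNA-related pseudogene, between the genes whose located starts were nearest, Gabbr1 (2802 kb before the window) and Cenpq (1086 kb after it). Whether the window holds that pseudogene was not tested, since RefSeq gives its place in another build. Ribosomal RNA genes occur in many near-identical copies, and calls in such a copy could not be assigned to it alone, so the window is reported as uncertain. It read 3.69% and 3.84% in input serum DNA, 12.1% and 12.3% in bound serum DNA, 1.10% and 0.979% in input 2i DNA and 1.42% and 1.57% in bound 2i DNA. Of each 1000000 calls it took 197 and 231 in input serum, 23.4 and 19.2 in bound serum, 234 and 189 in input 2i, and 225 and 156 in bound 2i. The bound libraries in serum were thus far below the other 6 libraries. The log2 ratio of bound to input was -3.61 in serum and -0.44 in 2i, a difference of 3.17 (edgeR interaction, adjusted p = 5.49e-08). Without this window the low windows read 43.0% and 42.5% in serum input, the change in bound DNA was -35.4 points, the excess of bound over input DNA in 2i was 7.98 points and the share ratio was 0.748-fold.

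Among windows with 200 or more calls in each library 2 further low ones were found. At chr6:47690001-47700000, with 170 CpG positions, input serum DNA read 37.6% and 45.1%, bound serum DNA 56.5% and 61.0%, input 2i DNA 14.9% and 13.9%, and bound 2i DNA 12.6% and 22.2%. At chr8:19780001-19790000, with 209 positions, the values were 46.8% and 35.9%, 76.0% and 77.6%, 26.4% and 26.6%, and 48.2% and 44.7%. In both windows bound serum DNA was above the other 3 kinds of library.

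The 5 largest falls in bound DNA were found in windows with and without a gene start. At chr14:112070001-112080000, which holds the starts of Slitrk5, a neuronal transmembrane protein gene, and Gm30439, bound DNA went from 88.5% and 88.6% in serum to 11.9% and 4.55% in 2i (-79.2 points, quasi-binomial fit, adjusted p = 1.59e-12). At chr17:30730001-30740000, with no located start, it went from 86.0% and 83.1% to 10.7% and 12% (-73.0 points, adjusted p = 6.13e-13). At chr17:74880001-74890000, likewise without one, it went from 92.6% and 80.6% to 11.1% and 17% (-71.9 points, adjusted p = 1.64e-12). The windows were picked for their falls, which sets the size of these differences. The media also stood apart in 97.9% of all low windows, where both bound 2i libraries were below both bound serum libraries. The window of Saysd1, chr14:20900001-20910000, went from 79.1% and 77.8% to 4.76% and 15% (-70.4 points), and that of Pfkl, the liver phosphofructokinase gene, chr10:77470001-77480000, from 94.0% and 88.9% to 20.8% and 24.0% (-69.1 points). These windows had 20 to 77 calls in a bound library.

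The independent RRBS libraries found most CpG-dense positions of the low windows nearly unmethylated in serum. RRBS reads CpG-dense fragments, and 750 of the low windows held 21915 positions with 5 or more calls in every E14 library. Leaving out the chromosome 17 window, 92.3% of the positions in low windows were at 10% or less in serum against 52.8% in the other windows, and 537 of 749 low windows (71.7%) averaged 10% or less against 11.3% of other windows. A further 99 of these low windows (13.2%) averaged over 50%. At the positions read by RRBS, serum input of ChIP-BS itself was at 6.47% ± 0.342, and at the remaining positions of the same windows at 42.2% ± 0.904 (SD, n = 2). Bound serum DNA read 39.9% and 71.2% at these positions. The 1444 low windows outside these 749 include the chromosome 17 window. They had a median of 59 CpG positions, against 146 for the 749, and read 42.3% in serum input with that window included. Apart from that window RRBS does not speak for them.

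In 2i the RRBS level of the low windows fell further from its low start. The E14 libraries read 3.74% and 4.05% in serum and 4.81% and 4.61% after 24 h. They read 3.37% and 3.39% after 48 h and 3.15% and 3.13% after 72 h. The last libraries read 2.39% and 2.53% (96 h) and 1.44% and 1.45% (168 h). The level was thus higher at 24 h than in serum, and lower from 48 h on. Across the 12 samples it fell with time (Pearson r = -0.926, permutation p = 4e-05, adjusted p = 0.000107 over 10 tests of the RRBS series; Spearman rho = -0.933, permutation p = 6e-05), and r was -0.826 without the 2 samples at 168 h. At 168 h 37.1% of the serum level was left in the low windows and 53.5% in the other windows, which went from 36.2% to 19.4%. In points the other windows lost more, and the difference of low minus other windows rose with time (r = 0.973, permutation p = 2e-05, adjusted p = 0.0001). The low windows, at 3.74% and 4.05% in serum, had few points to lose. This rise was thus partly set by the choice of windows and is read as a description only. The ratio of low to other windows fell with time (r = -0.825, permutation p = 0.00098, adjusted p = 0.0014), but r was -0.561 without the 168 h samples.

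The level differed with gene starts and CpG number. Low windows with a start went from 2.20% to 0.809% and those without from 5.70% to 2.12%. Other windows with a start began between these levels and went from 3.66% to 1.55%. CpG class 1 rests on 69 positions in 27 low windows, and went from 29.4% ± 0.250 in serum to 17.2% ± 0.633 at 168 h (SD, n = 2), where the other windows of that class went from 55.4% to 36.3%.

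UHRF1-/- ESCs had RRBS methylation in the low windows that was lower than in wild-type ESCs by few points, from an already low level. A total of 553 positions in 33 low windows had 5 or more calls in all 23 libraries used, of which all but 148 lay in the chromosome 17 window, and 1 wild-type serum library, which held 6 positions, was not used. In serum UHRF1-/- libraries read 3.27% and 3.33% and the wild-type library 5.36%. At 96 h they read 1.58% and 1.63% against 3.25% and 2.92%, and at 168 h 2.30% and 2.26% against 2.20% and 2.27%. The genotypes were thus apart in serum and at 96 h and overlapped at 168 h. Averaged over time points UHRF1-/- was lower by a difference of -1.75 points (exact permutation within time points, p = 0.000214, adjusted p = 0.000429, lower at 5 of 6 time points), against -6.25 points in the other windows (adjusted p = 0.000107), and the 2 differences were apart by 4.5 points (exact permutation p = 0.000814, adjusted p = 0.00136), although at 1 of 6 time points the order was the opposite (-1.33 points). This gap was 8.16 points with 1 or more calls per library and 2.95 points with pooled calls (exact permutation p = 0.0308). The low windows, at 5.36% in wild-type serum, had few points to lose, so the gap was partly set by the choice of windows. The change relative to the starting level was not tested. Without the chromosome 17 window, on 148 positions in 32 windows, UHRF1-/- read 6.54% and 5.97% in serum against 8.61%, and the difference was -1.73 points, and with 1 or more calls per library, on 20498 positions in 765 windows, it was -1.13 points. With 1 replicate of each time point the difference was -1.41 points without replicate 1 and -1.07 points without replicate 2 (exact permutation, p = 0.125 and 0.0625).

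TET TKO ESCs had RRBS methylation in the low windows that was higher than in wild-type ESCs by few points, with a sign that turned in some settings. In serum TET TKO libraries read 4.92% and 5.03% and wild-type libraries 3.18% and 3.23%. At 168 h TKO read 2.46% and 2.58% and the 1 wild-type library 1.56%. TKO was higher by 1.37 points over time points (exact permutation p = 0.00154, the smallest possible, higher at 4 of 4 time points, 6805 positions in 558 windows), against 5.87 points in the other windows. The sign turned to -2.81 points with 10 calls per library and to -3.49 points with pooled calls, both of which include the chromosome 17 window. That window alone read 7.97% and 8.03% in wild-type serum and 2.80% and 2.89% in TKO serum. Without it the low windows were higher in TKO by 1.73 points, and by 0.905 points with pooled calls. The setting of 10 calls per library was not run without it.

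**Figure D4:**
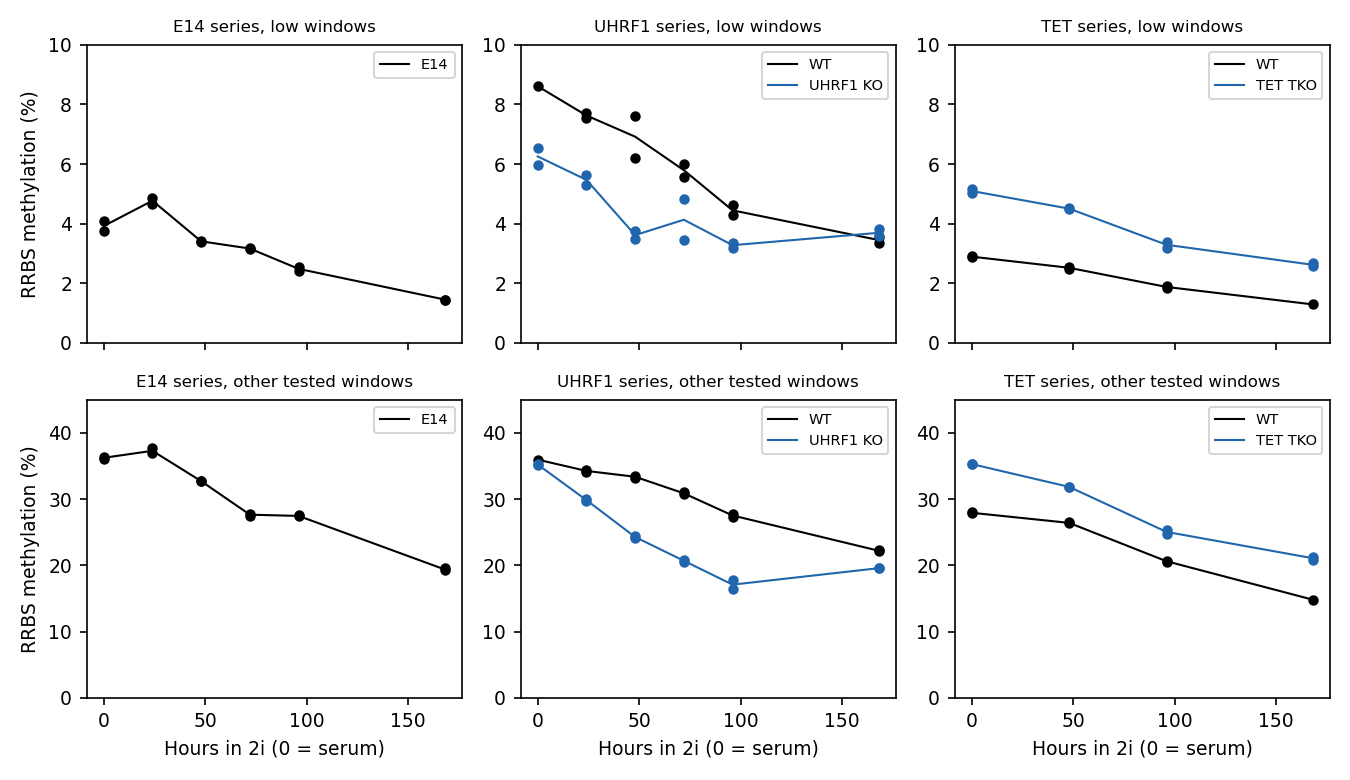
RRBS methylation (%, mean over positions) against hours in 2i (0 is serum) in the E14, UHRF1 and TET series, points for libraries and lines through their means, for low windows without the chromosome 17 window (top, axis to 10%) and other tested windows (bottom, axis to 45%). Top panels rest on 21515 positions (E14), 148 (UHRF1) and 6387 (TET); TKO lies above wild-type at each time, and UHRF1-/- lies below at each time but 168 h.

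Genes that start in the low windows changed about as often in 2i as genes at large, and more of them fell than rose. RNA from these bulk cultures cannot tell fewer cells of a type from less RNA per cell. ESC marker genes were high in serum, with a mean log2 expression of 8.29 for Pou5f1 and 6.78 for Nanog, while the 5 fibroblast genes that would mark feeder cells ranged from 2.49 (Col1a1) through 0.87 (Thy1), -0.75 (Col1a2) and -2.38 (Col3a1) to -4.50 (Postn). At 72 h the means of 4 of these 5 were lower than in serum (1.53 for Col1a1, 0.41 for Thy1, -1.33 for Col1a2 and -3.94 for Col3a1) and that of Postn was higher (-4.20). Of 4 primitive endoderm genes the means of Gata4 (-0.70 in serum and 0.22 at 72 h), Sox17 (-2.27 and -1.68) and Gata6 (-0.0029 and 0.12) were higher at 72 h and that of Pdgfra was lower (-0.96 and -1.40). The part of other cell types in the changes below was not tested. Of 341 genes that start in low windows 290 were in the expression table and 185 passed the filter on low values. At 72 h in 2i 98 changed, 30 up (16.2%) and 68 down (36.8%; limma, adjusted p under 0.05), where 50.5% of all tested genes changed, 24.5% up and 26% down, and their median log2 change was -0.13. At 24 h 122 changed, 48 up and 74 down, where 62.7% of all tested genes did, 33.7% up and 29% down. At 6 h 31 changed, 12 up and 19 down, where 14.3% did, 8.22% up and 6.04% down. Without replicate 1 the numbers that changed were 5 (6 h), 71 (24 h) and 58 (72 h), and without replicate 2 the first fell to 6 and the last to 51. All tested genes moved alike, to 3.99%, 34.9% and 31.8% without replicate 1 and to 3.6% and 27.2% without replicate 2. Fitting only the serum and 6 h libraries gave 63 genes at 6 h, where 28.5% of all tested genes changed.

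The largest fall was in Lrp2, the endocytic receptor megalin, from log2 values of 3.49, 3.55 and 3.8 in serum to -0.70, -1.15 and -0.42 at 72 h (-4.37 ± 0.27, SE, limma adjusted p = 2.09e-07). Neurod1 went from 2.20, 2.02 and 2.05 to -1.58, -1.96 and -3.13 (-4.31 ± 0.31, limma adjusted p = 7.13e-07). Adam23, a cell-surface protein of the ADAM family, went from 3.4, 3.47 and 3.65 to -0.12, -0.57 and 0.14 (-3.69 ± 0.18). Serum and 72 h libraries stand apart here because the genes were picked for their falls. Spred1, an inhibitor of Ras-MAPK signalling, changed by -2.92 ± 0.11 and Ccn1 (listed as Cyr61), a secreted matrix protein, by -2.88 ± 0.09.

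The largest rises were smaller. Ndufb4, a subunit of respiratory complex I, went from 4.06, 4.23 and 3.82 to 5.57, 6.36 and 5.09 (1.63 ± 0.36, limma adjusted p = 0.00267). Aldh18a1, an enzyme of proline synthesis, went from 3.19, 3.13 and 3.29 to 4.79, 4.61 and 4.68 (1.49 ± 0.11, limma adjusted p = 6.48e-07). Cyp51, an enzyme of cholesterol synthesis, rose by 1.42 ± 0.13, Phyh, a peroxisomal enzyme of phytanic acid breakdown, by 1.30 ± 0.14, and Dtnbp1, which encodes dysbindin, by 1.25 ± 0.18. These genes were likewise picked for their rises, and without replicate 2 the change of Ndufb4 was 1.39 (limma adjusted p = 0.0536).

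**Figure D5:**
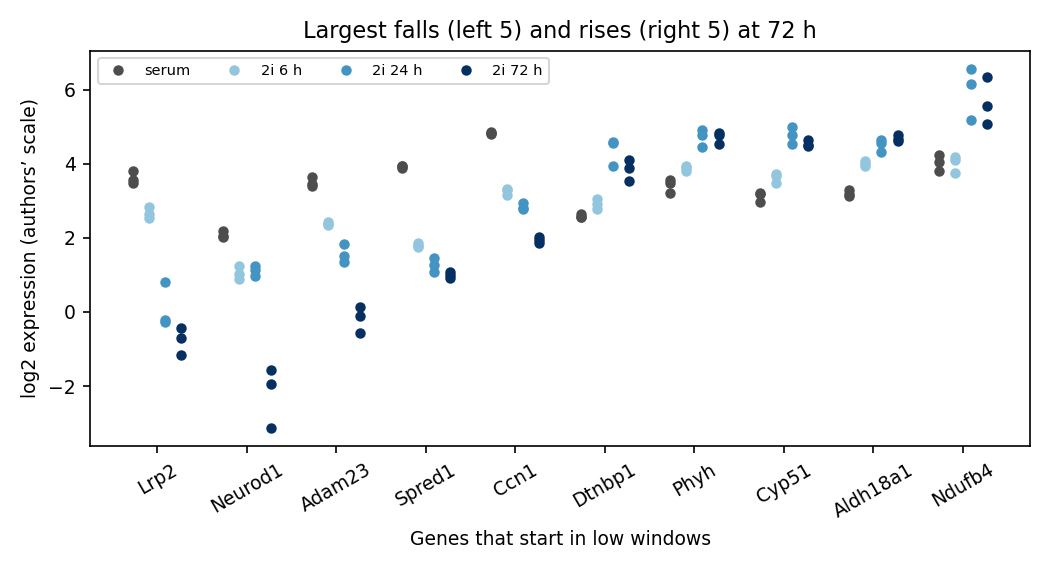
Log2 expression on the authors’ scale in the 3 libraries of each group (serum, and 6, 24 and 72 h in 2i; darker points are later) for the 5 genes starting in low windows with the largest falls at 72 h (left, Lrp2 to Ccn1) and the 5 with the largest rises (right, Dtnbp1 to Ndufb4). Lrp2 went from 3.49 or more in serum to -0.42 or less at 72 h.

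Expression and methylation are given side by side for the named genes. The Lrp2 window, chr2:69420001-69430000, read 32.9% and 22.8% in input serum DNA, 82.1% and 81.5% in bound serum DNA, 17.7% and 14.5% in input 2i DNA and 19% and 21.4% in bound 2i DNA. It was scarce in bound serum DNA (log2 -3.23 against input, edgeR adjusted p = 2.41e-09). The Neurod1 window, chr2:79290001-79300000, fell in bound DNA from 42.7% and 60% to 5.63% and 17.6% (-41.2 points, quasi-binomial fit, adjusted p = 1.77e-10). The Emx2 window fell from 57.7% and 64.7% to 35.7% and 13.5% (-38.6 points, adjusted p = 0.000363), and the Hand2 window, chr8:59790001-59800000, by a difference of -25.4 points (adjusted p = 0.0124). The Isl1 window changed by -16.6 points (adjusted p = 0.131) and the Ccn1 window, chr3:145310001-145320000, by -18.1 points (adjusted p = 0.085), which did not pass. Bound DNA in the windows of Spred1 and Adam23 changed by -49.4 and -39.4 points. In the windows of the 5 risen genes it changed by -56.9 (Dtnbp1), -52.1 (Phyh), -49.6 (Ndufb4), -37.1 (Aldh18a1) and -35.5 points (Cyp51). Bound DNA fell in windows of risen as well as of fallen genes, but 91.7% of low windows and 98.7% of all tested windows were called lower. The falls are thus not read as a trait of these genes. Expression is from 72 h in 2i, while the labels give no time in 2i for ChIP-BS. A link between expression and methylation was not tested. Isl1, Hand2 and Emx2 had mean log2 levels of -3.36, -5.45 and -2.30 in serum and did not pass the expression filter.

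Against the 341 of 2006 located genes in tested windows that started in low ones, the counts of the other lists are too small to read. Of 18 genes of the DNA methylation and H3K9 machinery 14 were located, 4 started in tested windows and 2 in low ones, both of them H3K9 demethylases. Kdm4c went from log2 values of 4.05, 3.99 and 3.89 in serum to 2.94, 2.63 and 3.03 at 72 h (-1.11 ± 0.14, limma adjusted p = 4.96e-05), and bound DNA of its window, chr4:73890001-73900000, changed by -52.5 points (quasi-binomial fit, adjusted p = 2.9e-13). Kdm3a read 5.36, 5.32 and 5.15 in serum and 5.30, 5.03 and 5.44 at 72 h (-0.02 ± 0.12, limma adjusted p = 0.895), with 0.40 at 6 h (adjusted p = 0.0424) and -0.97 at 24 h (adjusted p = 4.74e-05). Bound DNA of its window, chr6:71580001-71590000, changed by -34.8 points (adjusted p = 4.2e-06). No low window held the start of a tested Hox gene (0 of 1), germ line gene (0 of 10) or imprinted gene (0 of 6), and no gene of the patterning, pluripotency, ribosomal or Polycomb lists started in a tested window.

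H3K9me2 ChIP-seq was matched by gene name, and each library was first set to its own median over all bins. The bin was that of the gene start in the expression table. For a gene with several starts it need not be the start in the low window. Bound was then compared with input, and both bound replicates of a group shared the same input library. A value below 0 thus means a lower bound-to-input ratio than in the median bins, not less bound than input. The medians for genes starting in low windows were below 0 in every group, as for the genes starting in other or untested windows. Over 287 genes the median of log2 bound minus input in 2-kb bins was -2.58 and -2.83 in the serum replicates, -2.64 and -2.45 at 24 h, and -2.21 and -2.49 in LT2i. For genes starting in other tested windows it was -2.14 and -2.24 in serum, and for the 5817 genes in untested windows -3.92 and -4.07. Values were below 0 for 93.4% and 94.8% of the genes starting in low windows in serum and for 84.0% and 85.0% in LT2i. For genes starting in other tested windows these shares were 90.8% and 92.7% in serum and 86.5% and 85.8% in LT2i. For those in untested windows they were 98.6% and 99.1% in serum and 98.8% and 98.9% in LT2i. These values are a description, with no test.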

How the data were processed

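The authors deposited, for each RRBS and ChIP-BS library, counts of methylated and unmethylated calls per CpG position with the percent methylated. Bismark 0.12.3, Bowtie2 and Trim Galore 0.3.5 are named in the submitters' processing notes, and the ChIP-BS positions run past the end of chromosome 1 in GRCm38 and are taken as NCBIM37. RNA-seq was deposited as log2 values per gene, set by the authors to a common 75th percentile, and ChIP-seq as log2 of reads in 2-kb bins after scaling of each library to the largest. These tables use GRCm38, and TopHat2 2.0.11 is named for the submitters' pipeline. How reads were counted and duplicates handled is stated in none of the sources used here.

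For ChIP-BS, positions of over 20 calls, which held 7.28% to 12.0% of a library's calls, were removed, and 14695133 to 22351251 autosomal calls per library were pooled in 10-kb windows. A window needed 20 calls in all 8 libraries, and 73.5% of 238772 windows with any call passed. Calls per window were compared with edgeR 4.0.16 (quasi-likelihood, TMM; DESeq2 1.42.0 as an alternative). Methylation was compared by a quasi-binomial fit per window whose dispersions (1.37 to 1.75 after moderation with squeezeVar, limma 3.58.1) were shared over windows, called at an adjusted p under 0.05 and a difference of 20 points. RRBS levels are means over positions with 5 or more calls in every library of a series. RNA-seq was fitted with limma (trend) on genes with a mean log2 of 0 or more (11345 genes). Values over sets of windows were compared by exact permutation tests or, for time, 100000 permutations, all two-sided. Adjusted p-values are Benjamini-Hochberg over all windows or genes.

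No NCBIM37 annotation was used here. RefSeq promoters (250 bases before to 50 after a start) were placed by the spacing of their CpGs where they had 10 or more, and 9601 of 13800 searched matched 1 place on their own chromosome. Of 8650 pairs of neighbours 8623 lay within 5 Mb of each other in RefSeq as well. Intervals of NCBIM37 and GRCm38 were never converted, and the tables were joined by gene name.

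Groups were taken from the sample labels. Named windows and genes follow a rule: the first 4 genes of each list that start in a low window, the 5 largest rises and falls at 72 h, the 5 longest runs (ties in genome order), the lowest windows with 200 or more calls in each library, and the 5 largest rises and falls in bound DNA (no rise was called). The promoter sequences fall outside that rule, as no list gene started in a run. The members and gene lists were chosen with earlier results of these data known. Same-numbered ChIP-BS libraries did not deviate together (r of -0.0171 to 0.0137) and RNA libraries did so unevenly (r of -0.33 to 0.85), so numbers were not treated as pairs. On simulated data the window fit recovered 149 of 200 windows changed by 35 points, with 16 false calls. There edgeR recovered 69 of 200 changed 2-fold, with 6 false calls, and limma 139 of 200 genes, with 7. Alternatives covered call minimums, window placement, threshold, choosing library, normalisation, test, replicate block and each library left out.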

Additional observations from a re-analysis of the deposited data

Results flagged for a closer look

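The window at chr17:39980001-39990000 differed between media in the amount of bound DNA. Its log2 ratio of bound to input was 3.17 higher in 2i than in serum (edgeR interaction, adjusted p = 5.49e-08). Its 2 bound serum libraries took 23.4 and 19.2 of each 1000000 calls, and its 2 bound 2i libraries 225 and 156, while the 4 input libraries took 189 to 234. The window may hold an 18S ribosomal RNA-related pseudogene that RefSeq lists between the same genes, which was not tested.

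In 59 low windows the bound share differed between 2i and serum by the same test, 20 higher and 39 lower in 2i. That is 2.69% of the low windows, below the 4.92% of all tested windows.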

How the results depend on the processing

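The 2193 low windows became 251 with 50 calls per library, 507 at a threshold of 40% (share of calls log2 -0.76) and 30 at 25% (-1.36, the chromosome 17 window included), and 3616 without input serum replicate 1 and 3242 without replicate 2. With 50 calls per library 94 low windows were lower in bound serum DNA, 102 in bound 2i DNA, 243 fell in bound DNA in 2i and 16 were higher in bound than in input 2i DNA, where the shares of all windows so tested were 9.25%, 17.7%, 99.3% and 0.706%. Among all 2193 low windows the 94 higher in bound than in input 2i DNA became 4 with limma on log2 ratios and 17 to 115 with 1 library left out. Leaving out 1 library gave 579 to 765 and 706 to 854 windows lower in bound DNA in serum and 2i, 1903 to 2010 that fell, and a share of calls of -0.60 to -0.27 (-0.27 without input serum replicate 2, -0.28 without replicate 1). The shares of all tested windows in these fits are not given here, so the ranges are not read as a trait of the low windows.

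The E14 time relation stayed between r = -0.957 and -0.907 with 1 replicate per time point. UHRF1-/- differences were then -1.41 to -1.07 points (low against other windows 3.97 to 6.68, with 8.16 at 1 call per library and 2.95 with pooled calls), and TKO differences 1.60 to 1.73 (-4.65 to -4.30), in designs whose smallest exact p can exceed 0.05. The TKO difference turned to -2.81 points with 10 calls per library and to -3.49 with pooled calls (low against other windows -9.12).

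Genes called at 6, 24 and 72 h became 7, 47 and 38 when an absolute log2 change of 1 was also required (4.06%, 25% and 17.9% of all tested genes), and ranged over 5 to 28, 71 to 137 and 51 to 112 with 1 replicate left out. At 6 h they were 63 when only the compared libraries were fitted. The log2 change of Kdm3a at 72 h was 0.0328 with quantile normalisation and -0.18 to 0.11 with 1 replicate left out. With the replicate block the RNA counts were 48, 141 and 113, where 19.6%, 70.8% and 59.6% of all tested genes changed. The block left 2010 windows that fell in bound DNA and 88 higher in bound than in input 2i DNA. It thus moved no count but that at 6 h by over 1.5 times. The causes of these changes were not tested. Depth limits single windows, which had a median of 48 to 62 calls per library.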
